A study of Mus musculus with 8 samples.

Results

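The dystrophin-glycoprotein complex was described through 8 of its genes, Dmd, Utrn, Dtna, Dag1, Sgca, Sgcb, Sgcd and Sspn, taken by symbol from a table of 52535 genes. RNA sequencing compared muscle satellite cells (SCs), the resident stem cells of skeletal muscle, between 4 control and 4 exercise libraries. The control mice were sedentary and the exercise mice were run on a treadmill, at 12 m/min for 30 min a day on 4 days a week, for 4 weeks. Mice of both groups were male C57B/6J animals, 10 weeks old when divided into groups, for which no transgene or deleted allele is named. About 800 SCs from the tibialis anterior muscle were sorted into each library, as cells that carry CD34 and α7-integrin and lack CD31, CD45, CD11b and Sca1. The study describes the libraries as coming from separate mice, which the labels do not record. Because some libraries share content, as described below, the p-values are taken to measure only the spread between these libraries, which may in part be technical.

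In muscle the complex is a bridge across the plasma membrane. Dystrophin, or its relative utrophin, holds cytoplasmic actin at one end and the membrane protein β-dystroglycan at the other, while α-dystroglycan outside the cell carries long sugar chains that bind laminin in the basement membrane. The sarcoglycans and sarcospan sit beside dystroglycan in the membrane and stabilise it, and dystrobrevin and the syntrophins are cytoplasmic adaptors that bring in signalling enzymes. Loss of dystrophin causes Duchenne muscular dystrophy, loss of a sarcoglycan causes limb-girdle muscular dystrophy, and in SCs dystrophin is known to take part in setting cell polarity before division.

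Sarcospan (Sspn) was the member with the clear difference between groups. Its transcript was almost absent from the control libraries and present in every exercise library, with a mean of 0.0510 ± 0.0725 FPKM in control and 55.0 ± 40.2 FPKM in exercise (SD, n = 4 each). Dystroglycan (Dag1) was read in all 8 libraries and did not differ beyond their spread. β-sarcoglycan (Sgcb) and utrophin (Utrn) were read in 3 control libraries each and in no exercise library, dystrophin (Dmd) had 3 reads in all, and the transcripts of α-sarcoglycan (Sgca) and δ-sarcoglycan (Sgcd) had no read in any library.

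The FPKM values used here divide the reads of a gene by its length and by a scaling factor of the library, so levels can be set beside each other between genes. In control the order of the mean levels was Dag1 at 17.4 FPKM, Sgcb at 3.40, α-dystrobrevin (Dtna) at 0.633, Utrn at 0.264 and Sspn at 0.0510, with Dmd, Sgca and Sgcd listed at 0. In exercise it was Sspn at 55.0 FPKM, Dag1 at 10.6, Dtna at 0.129 and Dmd at 0.0284, with the other 4 members listed at 0. The ranges of neighbours in these orders overlapped over the libraries of a group in each case. Compared within each library, Dag1 was above Dtna in all 4 exercise libraries. By these means Sspn stood last among the members with reads in control and first in exercise. In exercise 4, however, Dag1 was above Sspn, at 34.9 against 3.47 FPKM. In control 3, Sspn was above Dtna, at 0.154 against 0.0151 FPKM.

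**Figure D1:**
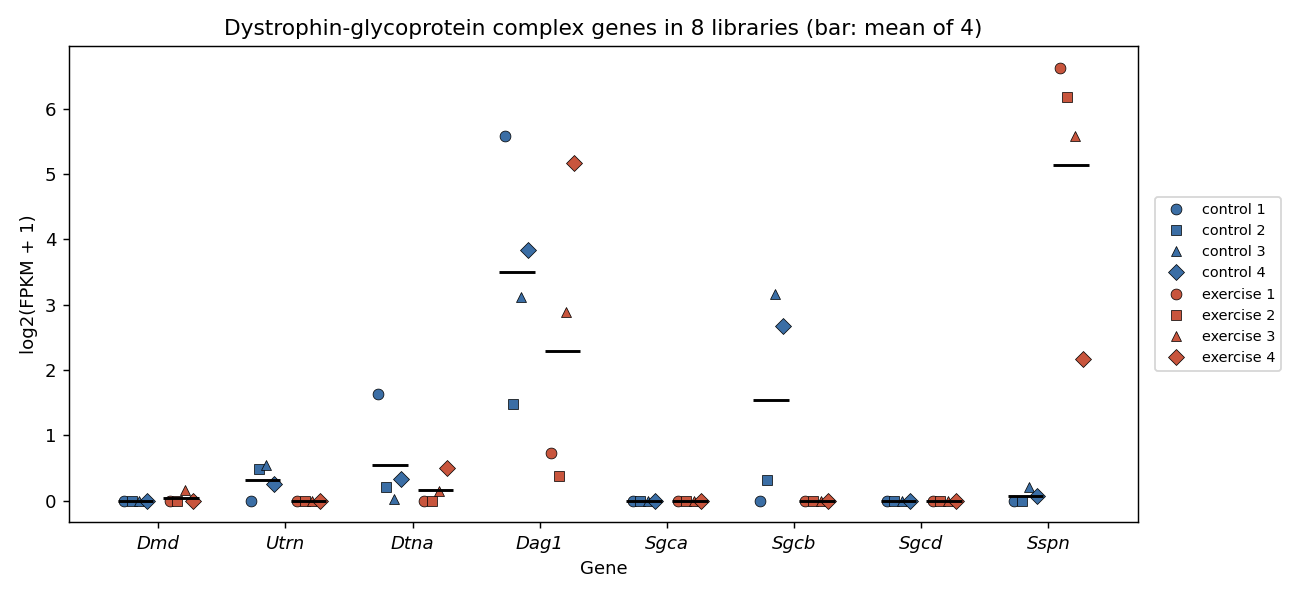
Each point is the log2(FPKM + 1) of a complex gene in 1 library, with blue for control, red for exercise, the marker shape for the library number and a bar for the mean of 4 libraries. Sspn is the only gene whose control and exercise points do not overlap, Dag1 spreads widely in both groups, and Sgca and Sgcd lie at 0 throughout.

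Of the 8 members, 6 had a read in any library and 3 (Sspn, Dag1 and Sgcb) reached the mean of 1 FPKM over the 8 libraries at which genes were tested. The comparison used limma on log2(FPKM + 1) with Benjamini-Hochberg adjustment over 4328 genes, and a gene was called at an adjusted p under 0.05. Sspn was called and higher in exercise, and Dag1 and Sgcb were not called. Of all genes tested, 35.6% were called, 8.78% as higher and 26.8% as lower in exercise, so 1 call among 3 tested members is close to the share of all genes. The median log2 fold change of the 3 members was -1.22, beside -1.42 for all genes tested, most of which were lower in exercise. Quantile normalization moved the median of all genes to -0.44.

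The libraries themselves differed in ways that touch these values. Control libraries held 2339966 to 3013354 reads on genes and exercise libraries 1011737 to 1200221, and 1 read of a gene of 1 kb was worth 0.251 to 0.436 FPKM in control, 0.598 to 0.902 FPKM in exercise 1 to 3, and 3.47 FPKM in exercise 4. Mitochondrial transcripts took 2.09 to 15.3% of reads in control, 7.56 and 7.85% in exercise 2 and 1, and 50.2 and 68.7% in exercise 3 and 4. Exercise 1 and 2 were far more alike than any other pair in a group, with a chi-square per degree of freedom of 3.86 against 82.6 to 711. For genes read 50 times or more in control 1 but never in control 3, the median share of reads in control 4 was 0.281 of that in control 1, and for genes of control 3 alone it was 0.714. In the same way exercise 3 kept 0.299 of the share of genes of exercise 1 and 0.677 of that of genes of exercise 4, and control 3 kept 0.674 of that of genes of control 2. Some libraries may therefore not be separate samples, and results are also given for 5 samples, after averaging exercise 1 with 2 and leaving out control 4 and exercise 3.

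The labelled cell type was only partly visible in its markers. Of 16 SC markers 11 had a read, with a summed level of 34.3 to 70.8 FPKM in control and 32.6 to 125 FPKM in exercise. Pax7, the transcription factor that defines SCs, and Itga7, the integrin used in the sort, had no read in any library. Cd34, the other marker sorted for, had reads in every library, with means of 0.874 FPKM in control and 5.54 FPKM in exercise. It was not called (log2 fold change 1.68, limma adjusted p = 0.067). Of the markers sorted against, Ly6a (Sca1) had means of 3.60 FPKM in control and 3.69 FPKM in exercise. Ptprc (CD45), Itgam (CD11b) and Pecam1 (CD31) had no read in any library. Myod1, the factor of activated myoblasts, was at 0, 0, 0.83 and 0.94 FPKM in control 1 to 4 and at 0 in exercise. Transcripts of mature muscle fibres were abundant, with 15 of 16 markers read (Tnnc2 was at 0) and a summed level of 36514 to 67268 FPKM in control and 20188 to 61189 FPKM in exercise. Skeletal actin (Acta1) alone reached 16152 to 30962 FPKM in control and 9438 to 26198 FPKM in exercise, and muscle creatine kinase (Ckm) 519 to 5573 FPKM in control and 92.0 to 2647 FPKM in exercise. All 10 fibro-adipogenic markers had reads, summing to 3045 to 4547 FPKM in control and 3620 to 9597 FPKM in exercise. No immune marker of 9 had a read. In a pool of cells, fewer cells that express a gene and less RNA of it per cell cannot be told apart.

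Sspn lies on the plus strand of chromosome 6 of GRCm38, from 145931641 to 145965223, and 4996 bases of its exons were counted. Its protein, sarcospan, crosses the membrane several times and joins the sarcoglycans. Control 1 to 4 had 0, 0, 0.154 and 0.0502 FPKM, which were 0, 0, 3 and 1 reads, and exercise 1 to 4 had 97.9, 71.8, 46.9 and 3.47 FPKM, which were 818, 572, 260 and 5 reads. All 4 exercise libraries were above all 4 controls. The groups of 31.6% of all genes tested also did not overlap. The log2 fold change was 5.07 (SE 0.98, limma adjusted p = 0.0063), the 63rd highest of 4328 genes, and the exact two-sided permutation p was 0.0286, the smallest that 4 libraries against 4 can give.

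The size of the Sspn difference rested on few control reads. Summed over a group, 1655 of 4425867 reads in exercise and 4 of 10808426 in control fell on the gene, a ratio of shares of 1010 with a 95% exact interval of 394 to 3713. This interval covers counting error only, as do all intervals and limits for a count of 0 given here, because amplified reads are not independent molecules. With every control library set to the 3 reads that a count of 0 allows, the ratio of the mean FPKM was 289, and leaving out 1 library moved it to between 214, without exercise 1, and 379, without exercise 4. The 5 reads of exercise 4 had a 95% Poisson interval of 1.13 to 8.10 FPKM, above the 0.450 FPKM that is the upper end for the 3 reads of control 3. As shares of reads the same intervals overlapped, at 1.40 to 10.1 reads per 1000000 in exercise 4 and 0.205 to 2.91 in control 3.

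In reads per 1000000 reads on genes (RPM), Sspn had 0, 0, 0.996 and 0.358 RPM in control 1 to 4 and 773, 565, 217 and 4.33 RPM in exercise 1 to 4. Exercise 3 had 260 reads where the shares kept from exercise 1 and exercise 4 give 281. Leaving out any of the 8 libraries in turn kept the call, with log2 fold changes of 4.57 to 6.06 and limma adjusted p of 0.000152 to 0.0278. The call was lost in 1 of 21 alternative fits, the one with 5 samples, where the log2 fold change was 4.22 and the limma adjusted p 0.419 over 3 control and 2 exercise samples. In that fit limma called no gene of 4499, and 469 had an unadjusted p under 0.05, as did 1 of the 3 members tested.

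Some markers of other cell types had the shape of Sspn across the libraries, and others did not. Of the 10 fibro-adipogenic markers 9 were tested, 2 were called higher in exercise and 1 lower. Their sum was 9324, 9597, 5278 and 3620 FPKM in exercise 1 to 4 and at most 4547 FPKM in control, and Gsn made up most of it in exercise 1 to 3, with 6902, 7201, 3693 and 1484 FPKM in exercise 1 to 4. Col1a2, a collagen chain, went the other way and was called lower, from a mean of 615 to 103 FPKM (log2 fold change -2.84, limma adjusted p = 0.0246). Pdgfra had means of 20.3 FPKM in control and 5.56 in exercise, and Dcn of 1521 and 1424 FPKM, and neither was called.

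Myh11, the myosin of smooth muscle, was at 0 in all controls and at 70.1, 71.5, 35.6 and 3.14 FPKM in exercise 1 to 4. Acta2, smooth muscle actin, had 0.734, 0, 43.3 and 35.1 FPKM in control and 0, 0.352, 2.03 and 1.95 FPKM in exercise, and 6 of 10 smooth muscle and pericyte markers, Tagln, Cnn1, Rgs5, Mcam, Kcnj8 and Notch3, were at 0 in all 8 libraries. The sum of that list was 2.88 to 46.3 FPKM in control and 5.72 to 89.3 FPKM in exercise. Tek, an endothelial receptor, had 0.0925, 0, 0 and 0 FPKM in control and 24.0, 25.8, 14.7 and 4.42 FPKM in exercise. Kdr, the other endothelial marker tested, went the opposite way, with 0, 2994, 1669 and 1076 FPKM in control and 0.53, 0.347, 0 and 0 FPKM in exercise, and was called lower (log2 fold change -7.82, limma adjusted p = 0.0281). Of the 10 endothelial markers 7, Pecam1 and Cdh5 among them, were at 0 throughout, and the list summed to 0.0925 to 2994 FPKM in control, nearly all of it Kdr in control 2 to 4, and to 4.42 to 26.2 FPKM in exercise. Heyl, a Notch target counted among the SC markers, had 0 in control and 28.4, 27.2, 11.8 and 0.679 FPKM in exercise. Chodl, the other SC marker called, went the opposite way, with 16.5, 5.13, 3.29 and 5.65 FPKM in control and 0 in exercise. Its log2 fold change was -2.90 (limma adjusted p = 0.00881). Of the 7 SC markers tested, 3 were higher and 4 lower in exercise. The marker genes given here were picked after their values were seen. Their part in the result was not tested.

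The genes most like Sspn across the 8 libraries were Rtn4rl1, Rad18 and Zkscan17, with Pearson correlations of log2(FPKM + 1) of 0.9997, 0.999 and 0.999. Rtn4rl1 and Rad18 were at 0 in control, Zkscan17 at 0.224 FPKM in control 3 alone, and each was highest in exercise 1 and lowest of the exercise group in exercise 4. In all, 289 genes had a correlation above 0.95 with Sspn, so this is a shape that many genes of these libraries share. The points share libraries and depth, and the values are a description.

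The upstream sequences of Sspn and Dag1 are shown because these are the members with reads in every exercise library. They are the 250 bases before a RefSeq start site of each gene, on GRCm38.p6, 5′ to 3′ on the strand of the gene. Neither window overlaps an annotated exon, and the Sspn window lies inside the span of the gene, upstream of a start within it. Capitals mark CANNTG, the E-box that myogenic factors such as MyoD bind, which reads the same on both strands.
Sspn chr6:145933872-145934121, plus strand: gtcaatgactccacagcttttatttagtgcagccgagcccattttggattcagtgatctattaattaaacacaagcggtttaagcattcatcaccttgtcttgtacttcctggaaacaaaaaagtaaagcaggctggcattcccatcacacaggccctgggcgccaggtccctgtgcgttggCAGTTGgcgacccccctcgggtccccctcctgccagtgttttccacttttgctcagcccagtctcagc
Dag1 chr9:108263959-108264208, minus strand: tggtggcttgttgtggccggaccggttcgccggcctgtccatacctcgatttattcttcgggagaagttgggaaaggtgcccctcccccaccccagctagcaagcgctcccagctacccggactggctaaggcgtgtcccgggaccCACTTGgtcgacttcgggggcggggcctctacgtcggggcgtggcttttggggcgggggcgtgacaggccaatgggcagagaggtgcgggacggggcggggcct
The Sspn window is 51.2% G and C and the Dag1 window 67.6%, and each holds 1 match. A further Sspn window, at the annotated start of the gene (145931623 to 145931872), holds no match, and a further Dag1 window (108263816 to 108264065) overlaps the one shown and holds the same match. Both overlap annotated exons and are not shown. Matches are common, with 66.2% of 32851 windows of this length holding at least 1. Of the members, 7 of 8 had such windows, 10 in all, and 7 windows of 6 members held a match, with the Dag1 match counted in both of its windows. A match describes the letters only.

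Dystroglycan is made from Dag1 as a single chain that is cut into the laminin-binding α and the membrane-spanning β subunit. The gene lies on the minus strand of chromosome 9, from 108204634 to 108263958, with 6357 counted bases. Control 1 to 4 had 46.9, 1.80, 7.70 and 13.2 FPKM (684, 35, 191 and 335 reads), and exercise 1 to 4 had 0.659, 0.296, 6.38 and 34.9 FPKM (7, 3, 45 and 64 reads). Control 1 and exercise 4 were the highest of their groups, exercise 1 and 2 the lowest of all, and the groups overlapped. The means were 17.4 ± 20.2 FPKM in control and 10.6 ± 16.5 FPKM in exercise (SD, n = 4 each), with a log2 fold change of -1.22 (SE 1.23, limma adjusted p = 0.422) and an exact permutation p of 0.4.

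Both FPKM and shares of reads gave Dag1 the same order in exercise. Dag1 had 292, 13.1, 63.4 and 120 RPM in control 1 to 4 and 6.61, 2.97, 37.5 and 55.4 RPM in exercise 1 to 4. Control 4 had 335 reads where the shares kept from control 1 and control 3 give 356, and exercise 3 had 45 where exercise 1 and exercise 4 give 47.4. The log2 fold change ran from -2.17 to -0.52 when 1 library was left out, and none of these fits called the gene. Weighting each library by its quality called it lower, at -2.44 (limma adjusted p = 0.00605), and quantile normalization turned its direction, to 0.12 (limma adjusted p = 0.934).

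On the FPKM scale the summed level of the muscle fibre markers was highest in the libraries with the most Dag1. It was 67268 FPKM in control 1 and 61189 FPKM in exercise 4, against at most 38195 FPKM in the other controls and 21467 FPKM in the other exercise libraries. Of the 15 markers with reads, 11 were highest of the controls in control 1 and 13 were highest of the exercise libraries in exercise 4. As a share of reads the sum was highest of its group in control 1 but not in exercise 4. It was 141623 RPM in control 1 against at most 112817 RPM in the other controls, and 34854 RPM in exercise 4, the lowest of its group, against 40563 to 58308 RPM in exercise 1 to 3. Taken singly by shares, 10 of the 15 markers were highest of the controls in control 1. In exercise 4, 8 were highest of the exercise libraries. Ckm and Ryr1 went the other way in control 1, the lowest of the controls for both, at 519 FPKM of Ckm and 0.0998 FPKM of Ryr1. Pvalb was lowest of its group in exercise 4, at 1617 FPKM. The part of these transcripts in the Dag1 values was not tested. The genes most like Dag1 over the 8 libraries were 0610037L13Rik (Pearson r = 0.995), Acat1 (0.976), an enzyme of ketone body and isoleucine breakdown, and Gstp1 (0.974), a glutathione transferase, and 14 genes were above 0.95.

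**Figure D2:**
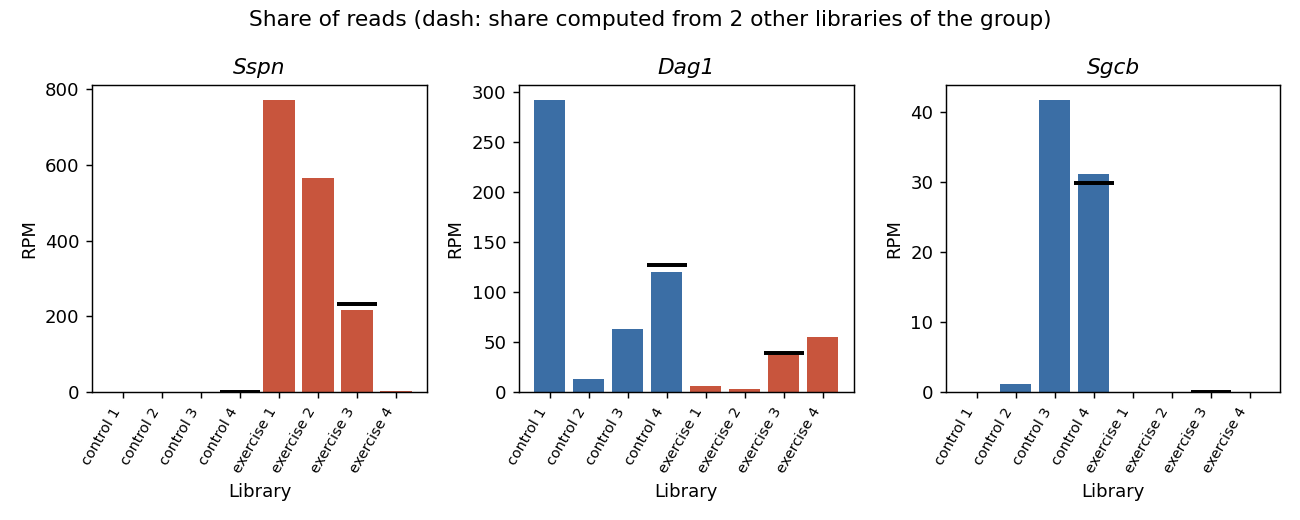
Bars give the RPM of Sspn, Dag1 and Sgcb in each library, blue for control and red for exercise, each panel with its own scale from 0. Black dashes over control 4 and exercise 3 give the share computed from the parts kept from control 1 with control 3 and from exercise 1 with exercise 4, and they lie near the tops of the bars, at 335 reads against 356 for Dag1 in control 4.

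The sarcoglycans had few or no reads in these libraries. Sgca, on the minus strand of chromosome 11 from 94962791 to 94976327, and Sgcd, on the same strand from 46896253 to 47988969, had no read in any library. A count of 0 allows up to 0.434 to 0.754 FPKM of Sgca and 0.0912 to 0.158 FPKM of Sgcd in control, and 1.03 to 1.56 FPKM of Sgca and 0.217 to 0.328 FPKM of Sgcd in exercise 1 to 3, with wider limits in exercise 4. By counting error alone, levels up to these limits may give no read.

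Sgcb, on the minus strand of chromosome 5 from 73632749 to 73647790, was the sarcoglycan with reads. Control 1 to 4 had 0, 0.242, 7.97 and 5.39 FPKM (0, 3, 126 and 87 reads), and all exercise libraries had 0. A count of 0 allows up to 0.443, 0.464, 0.668 and 2.57 FPKM in exercise 1 to 4. Control 1 was at 0 like the exercise libraries, so the groups overlapped. The control mean was 3.40 ± 3.93 FPKM (SD, n = 4), the log2 fold change -1.54 (SE 0.74, limma adjusted p = 0.122) and the exact permutation p 0.143.

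With the exercise libraries set to their limits, the control mean of Sgcb was 3.28-fold the exercise mean. This ratio was 1.81 without control 3 and 6.48 without exercise 4. It takes in counting error at 0 only, and not the spread between libraries. Sgcb was called lower without control 1 (log2 fold change -2.05, limma adjusted p = 0.0383) and with library quality weights (-2.66, limma adjusted p = 0.00018), and in none of the other fits that tested it. Control 4 had 87 reads of Sgcb where the shares kept from control 1 and control 3 give 83.3.

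**Figure D3:**
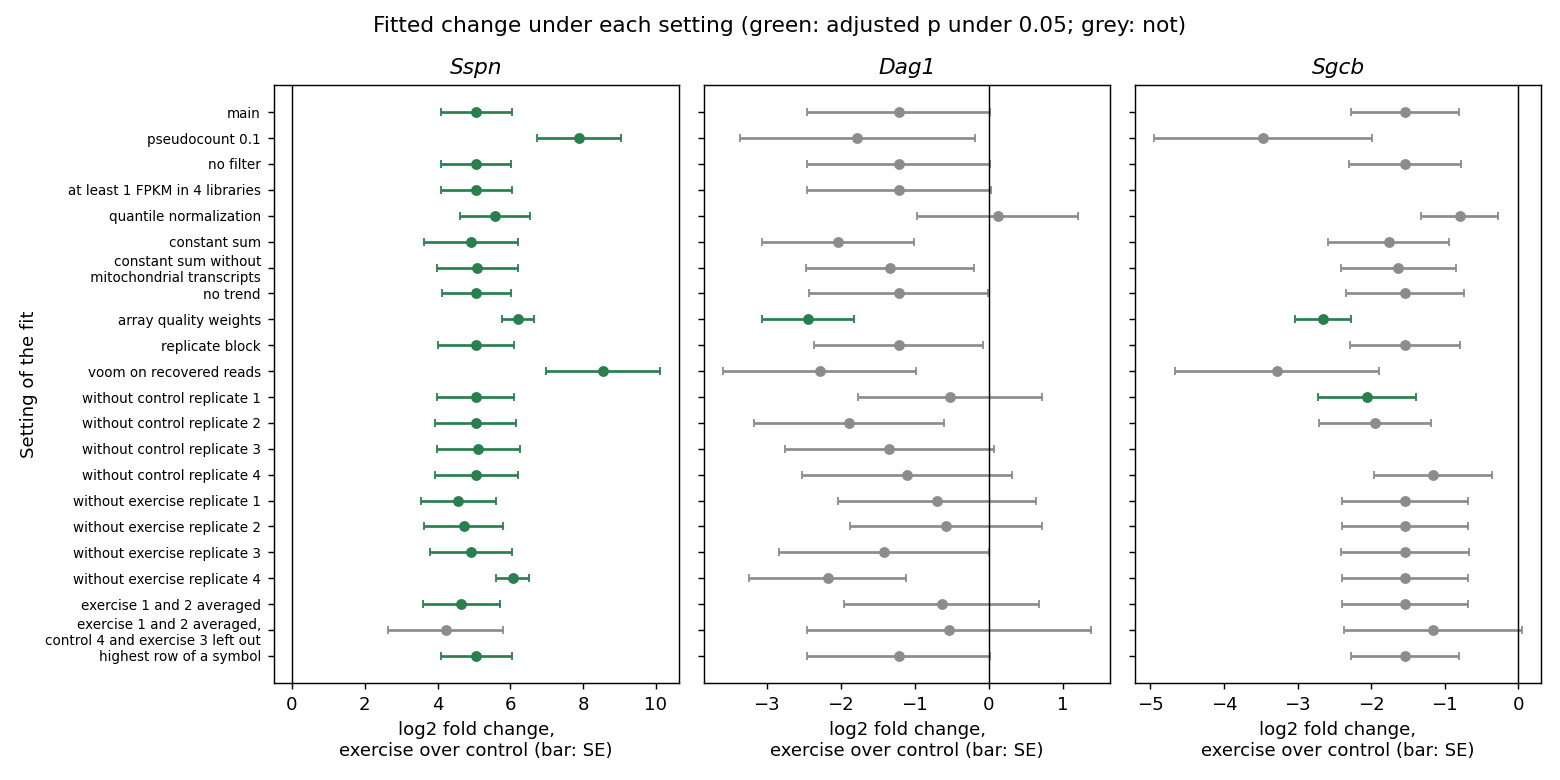
Points give the log2 fold change of exercise over control with bars of 1 SE for Sspn, Dag1 and Sgcb under each setting of the fit, green where the limma adjusted p is under 0.05 and grey where not, each panel with its own scale. Sspn lies above 0 throughout, between 4.22 and 8.56, Dag1 crosses 0 under quantile normalization, and Sgcb lies below 0, with no value where it failed the filter of 1 FPKM or more in 4 libraries.

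The cytoplasmic members were scarce. Dystrophin, the actin-binding protein that gives the complex its name, is encoded by Dmd on the plus strand of the X chromosome from 82948870 to 85206141, with 23801 counted bases. Dmd had 3 reads in exercise 3 (0.114 FPKM, 95% Poisson interval 0.0234 to 0.332) and none in the other 7 libraries, and the exact permutation p was 1. Neither exercise 1 nor exercise 4 held a read of it, so the shares kept from them give 0 reads in exercise 3. A count of 0 allows at most 0.0549 FPKM of Dmd in any control and 0.437 FPKM in exercise 4.

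Utrophin, the relative of dystrophin that stands in for it in immature and regenerating muscle, is encoded by Utrn on the minus strand of chromosome 10 from 12382188 to 12869365. Control 1 to 4 had 0, 0.401, 0.464 and 0.191 FPKM of Utrn (0, 21, 31 and 13 reads) and the exercise libraries none, with limits of 0.105, 0.110, 0.158 and 0.608 FPKM. Control 1 shared the 0 of the exercise libraries. The mean log2(FPKM + 1) was lower in exercise by a difference of -0.32 (exact permutation p = 0.143), and without control 1 by -0.43 (exact permutation p = 0.0286, where the groups did not overlap). With the exercise libraries at their limits, the control mean was 1.08-fold the exercise mean, with 2.12 without exercise 4 and 0.804 without control 3. A ratio below 1 sets no fold, so these reads did not measure the size of this difference.

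α-Dystrobrevin, the adaptor that binds dystrophin and the syntrophins, is encoded by Dtna on the plus strand of chromosome 18 from 23415135 to 23659715. Control 1 to 4 had 2.11, 0.154, 0.0151 and 0.252 FPKM of Dtna (82, 8, 1 and 17 reads), and exercise 1 to 4 had 0, 0, 0.107 and 0.410 FPKM (0, 0, 2 and 2 reads). Control 1 was far above the rest and the groups overlapped. The difference in mean log2(FPKM + 1) was -0.39 (exact permutation p = 0.4) and shrank to -0.02 without control 1. Genes like Dtna over the 8 libraries were Ndufb2 (Pearson r = 0.990), a subunit of respiratory complex I, and Dnajc3 (0.983), a chaperone of the endoplasmic reticulum.

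Beyond the 8 members, 57 genes of the same pathway were examined by role. Of these, 35 had a read in any library, 22 had none, 17 reached the level for testing and 7 were called, 1 higher and 6 lower in exercise, against 35.6% of all genes. Their median log2 fold change was -1.67, beside -1.42 for all genes tested. Of the 35 genes with reads, 17 had reads in control and none in exercise, and 2 had reads in exercise and none in control. The same counts were not taken over all genes, so these are not shown to be particular to the pathway. The exercise libraries held fewer reads and fewer genes with reads (2348 to 3289, against 5169 to 7307 in control), and the part of depth in these counts was not tested.

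Among 10 other core subunits, 5 had reads, 2 were tested and both were lower in exercise. Sgce, the sarcoglycan also made outside muscle, had 1.52, 9.54, 5.55 and 2.93 FPKM in control and 0, 0, 0.0850 and 0 FPKM in exercise, without overlap (log2 fold change -2.33, SE 0.58, limma adjusted p = 0.0173). Leaving out 1 library kept the call of Sgce in 5 of 8 fits, and quantile normalization ended it (log2 fold change -1.13, limma adjusted p = 0.173).

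The genes that glycosylate dystroglycan were mostly unread. Of 18, 8 had reads, 10 had none, 2 were tested and none was called by limma, while both had an unadjusted p under 0.05. B3galnt2, a glycosyltransferase of the laminin-binding sugar chain, had the highest mean level, with 25.6, 0.412, 0.526 and 5.11 FPKM in control 1 to 4 and 0 in exercise (log2 fold change -2.11, limma adjusted p = 0.0858).

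The matrix ligands differed in direction among themselves. Of 12 genes, 9 had reads, 5 were tested and 3 were called, 1 higher and 2 lower in exercise. Lamc1, the γ1 chain shared by most laminins, had 3.95, 3.55, 1.39 and 2.40 FPKM in control and 188, 184, 96.7 and 6.71 FPKM in exercise, a 42.2-fold ratio of means (log2 fold change 4.28, SE 1.06, limma adjusted p = 0.0166). Its highest and lowest exercise libraries were those of Sspn, and exercise 3 had 887 reads of it where exercise 1 and exercise 4 give 894. Agrn, which encodes agrin, a proteoglycan that binds α-dystroglycan at the nerve-muscle synapse, had 0.047, 13.5, 8.03 and 4.92 FPKM in control and 0 in exercise (log2 fold change -2.42, limma adjusted p = 0.0415). Lama4, a laminin α chain of vessels and nerve sheaths, was lower (log2 fold change -1.67, limma adjusted p = 0.043) on the deposited scale, and quantile normalization moved it to 0.048 (limma adjusted p = 0.952). The call of Lamc1 held in 4 of the 8 fits without 1 library, and those of Agrn and Lama4 in 1 of 8 each, and quantile normalization ended that of Agrn (limma adjusted p = 0.112). Quantile normalization kept the call of Lamc1 (log2 fold change 5.68, limma adjusted p = 0.00494). Scaling to a constant sum ended it (3.82, limma adjusted p = 0.0570), as did voom on the recovered reads (4.23, limma adjusted p = 0.0845).

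Of 15 cytoplasmic partners, 12 had reads, 7 were tested and 2 were called, both lower in exercise. Cav3, which encodes caveolin-3, the coat protein of muscle caveolae, had 119, 1.13, 3.54 and 22.8 FPKM in control and 0 in exercise. Its log2 fold change was -3.69 (SE 1.15, limma adjusted p = 0.0363). With the exercise libraries at their limits, its control mean was 10.1-fold the exercise mean, or 2.52-fold without control 1. Grb2, an adaptor of receptor signalling that binds β-dystroglycan, had 0, 3.81, 10.5 and 6.63 FPKM in control and 0 in exercise (log2 fold change -2.18, limma adjusted p = 0.047). Their calls held in 3 and 1 of the 8 fits without 1 library, and quantile normalization ended both (limma adjusted p = 0.098 and 0.134). Cav3 was highest in control 1, the control with the highest myofibre sum. A count of 0 in exercise 4 allows up to 8.997 FPKM of Cav3, above its levels in control 2 and 3. Actb, cytoplasmic actin, was the most abundant of the group, with 187, 835, 514 and 364 FPKM in control and 2819, 2811, 1502 and 430 FPKM in exercise, and was not called (log2 fold change 1.86, limma adjusted p = 0.0734).

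The parallel laminin receptor of muscle is the integrin α7β1. Itga7 was listed at 0 in all libraries and Itgb1 had 0, 19.3, 11.0 and 7.26 FPKM in control and 2.34, 1.23, 0.221 and 0 FPKM in exercise, with overlapping groups (log2 fold change -1.95, limma adjusted p = 0.129). Values of 0 in these libraries extend to genes that nearly every cell uses. Hprt had 0, 819, 644 and 376 reads in control 1 to 4 and 0, 0, 0 and 1 in exercise 1 to 4, and Gapdh had 701, 6145, 2735 and 9 reads in control and 1, 40, 0 and 0 in exercise, both chosen after their values were seen. A member listed at 0 is therefore not shown to be silent.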

How the data were processed

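Poly(A) RNA of sorted SCs was sequenced from 4 control and 4 exercise libraries, grouped by their labels. The submitters' processing notes name Bowtie 0.12.9, Cufflinks 2.1.1, HTSeq and the mm10 build, and the methods name DESeq2 for the tests of the authors. The authors deposited 1 table of FPKM values for 52636 rows, and rows sharing a symbol were summed (101 fewer). Multiplied by gene length, all values (100%) were whole multiples of a step per library within 0.001 reads, which gave the reads. The step matched median-of-ratios size factors over 1023 genes with a read in every library, within 0.001% in all 8 libraries, so the deposited FPKM are scaled between libraries by these factors and not by read totals. A read in exercise 4 is thus worth more FPKM than one elsewhere.

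The 4328 genes that averaged 1 FPKM or more were fitted by limma (version 3.58.1, R 4.3.3, eBayes with a trend) after a log2 transform with a pseudocount of 1, a fold change on that scale understating the change of low genes. Single genes were compared by exact two-sided permutation over 70 assignments (Python 3.11.15, numpy 2.4.6, pandas 2.3.3, scipy 1.17.1). A count of 0 was taken to allow 3 reads. Named genes were the 8 members, wider pathway genes with an adjusted p under 0.05, the gene with the highest mean FPKM of each group, and the 3 genes most correlated with each member read in 4 or more libraries, of which a few are not reported here. The members and lists were chosen with earlier results of these data known. Positions are from GENCODE on GRCm38, and all 8 members have the same coordinates there as in the deposited table. No read fell on a gene overlapping a member. Libraries of the same number did not deviate together (correlations -0.0169 to 0.0393). Alternatives were another pseudocount, filters, scalings, no trend, quality weights, a replicate block, voom on the recovered reads, leaving out each library, and averaging or leaving out libraries that share content. RPM, for members under the filter, were added after seeing the data.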

Additional observations from a re-analysis of the deposited data

Results flagged for a closer look

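Dmd in exercise 3 stood apart from the other exercise libraries, with a log2(FPKM + 1) of 0.155 from 3 reads against 0 in the other 3. It was found by comparing the gap of the highest or lowest library with the range of its group, in the groups of 4 libraries of the members with reads. It was 1 of 9 groups examined. With 3 libraries at exactly 0, any single read would have been picked out, so the rate that chance gives for such groups does not apply. The 95% Poisson interval of these reads, 0.0234 to 0.332 FPKM, lies below the limit that a count of 0 allows in exercise 4, 0.437 FPKM.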

How the results depend on the processing

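The rise of Sspn kept its direction in all 21 alternatives and its call in 20, with log2 fold changes of 4.57 to 8.56. Of 287 values under alternatives over 21 results, 204 kept direction and side of the threshold, 62 lost the call, 4 gained it, 15 counts moved by over 1.5 times and 2 changed sign. Under quantile normalization Dag1 moved to 0.12 and Lama4 to 0.048. The number of complex members called, 1 of 3, became 3 with array quality weights and 0 with 5 samples (exercise 1 averaged with 2, and neither control 4 nor exercise 3), and ran from 1 to 2 when 1 library was left out. The number of wider pathway genes called, 7, became 4 with no filter, 3 with quantile normalization, 17 with array quality weights, 1 after averaging exercise 1 with 2 and 0 with those 5 samples, and ran from 1 to 10 when 1 library was left out. With the replicate number as a block, 1 member (Sspn, limma adjusted p = 0.0130) and 4 wider genes were called, although the numbers share nothing in the labels and 3 of 4 exercise libraries correlated best with the control of their number. Over all genes, calls numbered 1541 in the first fit, 840 with no filter, 941 with quantile normalization, 2978 with quality weights, 1059 with the replicate block, and 527 to 1899 when 1 library was left out. Higher genes were 380 of 1541 at first and 566 of 941 after quantile normalization. Sgcb fell under the filter, and gave no value, without control 3 and with 1 FPKM required in 4 libraries. The causes of these changes were not tested. Members at 0 in exercise may reach the stated limits, which cover counting error only, without a read. The part of depth in these values of 0 was not tested.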
